A study of Mus musculus with 48 samples.

Results

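Tristetraprolin (TTP), encoded by Zfp36, is a zinc-finger protein whose binding to AU-rich stretches of messenger RNAs leads to their decay. The comparison described here set a fibroblast line without TTP against a fibroblast line with it, after serum stimulation and before any transcription inhibitor was added. It used 9 of the 48 Affymetrix mouse arrays of the study, chosen by their titles as those taken at 0 min of actinomycin D: 4 arrays of the knockout line (KO) and 5 of the wild-type line (WT). Both lines came from littermate E14.5 embryos of TTP+/- parents of strain 129/B6, from the body without head and organs. Cells of both lines were kept for 16 h in 0.5% fetal bovine serum and then given 10% serum for 90 min, and each sample pooled 3 dishes. The series text describes 5 experiments on different days, with both lines handled side by side in each, and the replicate number of an array was taken as the number of its experiment. The 48 arrays include no KO array of experiment 5 at 0 min. The labels name 1 line of each genotype, so the effect of the deletion and any other difference between the 2 lines cannot be told apart, and the replicates measure the spread between experiments on the same lines.

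Embryonic fibroblasts are mesenchymal cells that hold on to collagen and fibronectin through integrins and to each other through cadherins. They keep patterning transcription factors of the body region they came from, and they send and receive Wnt, Hedgehog and guidance signals. Lines made from such cultures also differ in how far they make serine, one-carbon units and nucleotides, and in their enzymes against oxidants and foreign compounds.

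The deposited values are log2 signals per probe set. Array medians lay between 8.50 and 8.54 in KO and between 8.48 and 8.56 in WT, so a signal near 8.5 is close to the middle of all probe sets. The 5th percentiles of the arrays at 0 min lay between 8.02 and 8.08. Whether background was removed was not stated, and if it remains in these signals, folds of dim genes are understated. A floor was set at 8.13, the highest 5th percentile among the 48 arrays, and a fold against a mean at or under it is given as "at least". Values below are means ± SD of 4 KO and 5 WT arrays, or differences (KO minus WT) ± SE from the limma fit, all on the log2 scale unless a fold is named. A gene was called when its Benjamini-Hochberg adjusted p over all 27500 tested probe sets was below 0.05, and each gene is represented by its probe set with the highest mean.

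Both lines carried the fibroblast markers. Of 16 markers listed for embryonic fibroblasts, 15 were tested, and Thy1 was the exception, with means of 8.10 in KO and 8.11 in WT. Vim was at 13.09 ± 0.056 in KO and 13.25 ± 0.057 in WT, Col1a2 at 12.58 ± 0.026 in KO and 12.55 ± 0.049 in WT and Fn1 at 11.69 ± 0.044 in KO and 11.81 ± 0.079 in WT. Over all genes 16% were called higher in KO and 13% lower. Among the 15 fibroblast markers tested, 4 were higher in KO (Pdgfra, Prrx1, Lum and Col5a1) and 4 were lower (Postn, Pdgfrb, Col6a1 and Vim). The 2 furthest were Pdgfra, a platelet-derived growth factor receptor, at 10.43 ± 0.11 in KO and 9.25 ± 0.24 in WT (difference 1.18 ± 0.099), and Postn, the matrix protein periostin, at 9.56 ± 0.68 in KO and 11.53 ± 0.37 in WT (difference -1.97 ± 0.29). Tested were 6 of 12 epithelial, 4 of 10 endothelial, 4 of 11 macrophage and blood and 6 of 10 skeletal muscle markers, and none was called. The summed signals of those lists, as log2 of the list mean, stayed between 8.28 and 8.59 in every array. Of 7 mesothelial markers 4 were tested, and only Msln was called. Of 10 smooth muscle and pericyte markers 9 were tested, with Tagln, Notch3 and Cnn1 higher in KO and Acta2 and Cspg4 lower. The list's level was 9.82 to 9.95 in KO and 9.96 to 10.1 in WT. Of 12 neural markers 6 were tested, and 3 were higher in KO (Tubb3, Ncam1 and Stmn2) and none lower. The neural list's level was 8.74 to 8.86 in KO and 8.48 to 8.6 in WT. The arrays of Ncam1 overlapped between the lines. Of 8 adipocyte markers 3 were tested, and Pparg and Lpl were lower in KO. Xist, the long RNA of the inactive X chromosome, was at 8.84 ± 0.58 in KO and 9.93 ± 0.30 in WT, while Uty, Eif2s3y and Kdm5d of the Y chromosome were near the array median or under it in both lines. The part of such markers in the differences below was not tested. In these bulk samples, fewer cells of a kind and less RNA per cell cannot be told apart.

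Zfp36 itself, the targeted gene, had 9.60, 9.58, 9.28 and 9.59 in KO, against 9.84, 10.13, 9.83, 9.69 and 9.83 in WT. All 4 KO arrays lay under all 5 WT arrays, but the difference was small, -0.35 ± 0.090, adjusted p = 0.00245, and the KO signal was far above the floor. The sources used here do not say where the probe set lies relative to the disrupted part, so this value is no check of the labels. The call ended without replicate 3 (adjusted p = 0.0551), in experiments 4 and 5 alone (0.126) and after background subtraction (0.0994).

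The lines differed widely. Of 27500 probe sets tested, 6964 were called (25.3%), with 3690 higher in KO (13.4%) and 3274 lower (11.9%). By gene, 3783 of 13018 were called (29.1%), 2087 higher (16%) and 1696 lower (13%). Most of these differences were small: the median size among called genes was 0.28, while 62 genes were at least 2-fold higher in KO (0.476%) and 94 at least 2-fold lower (0.722%). The median difference over all genes was 0.01. Among the genes with at least a 2-fold difference, 25 were higher in KO with a WT mean under 8.48, the lowest array median, and 24 were lower in KO with a KO mean under it. Those near background in WT included Wnt5a, Fzd6, Rps6ka6 and the neuronal genes Uchl1, Gap43 and Crmp1, and those near background in KO included Cdh11, Cntn3, Sema7a, Irx3 and Thbs2 (Rps6ka6, Uchl1, Gap43, Crmp1, Irx3 and Thbs2 were named after their values were seen). Arrays of the same line correlated at 0.963 to 0.994 over probe sets and arrays of different lines at 0.928 to 0.952. Within each line, the deviations of experiments 4 and 5 from the group means went together and against those of experiments 1 to 3 (correlations of -0.801 to -0.345 across the 2 sets and 0.007 to 0.649 within them, with centring itself pulling them below 0). The labels name no such batch, and experiments 4 and 5 hold 1 KO and 2 WT arrays at 0 min. In experiments 1 to 3 alone 3389 probe sets were higher in KO and 3061 lower, and in experiments 4 and 5 alone 2830 were higher and 2550 lower.

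**Figure D1:**
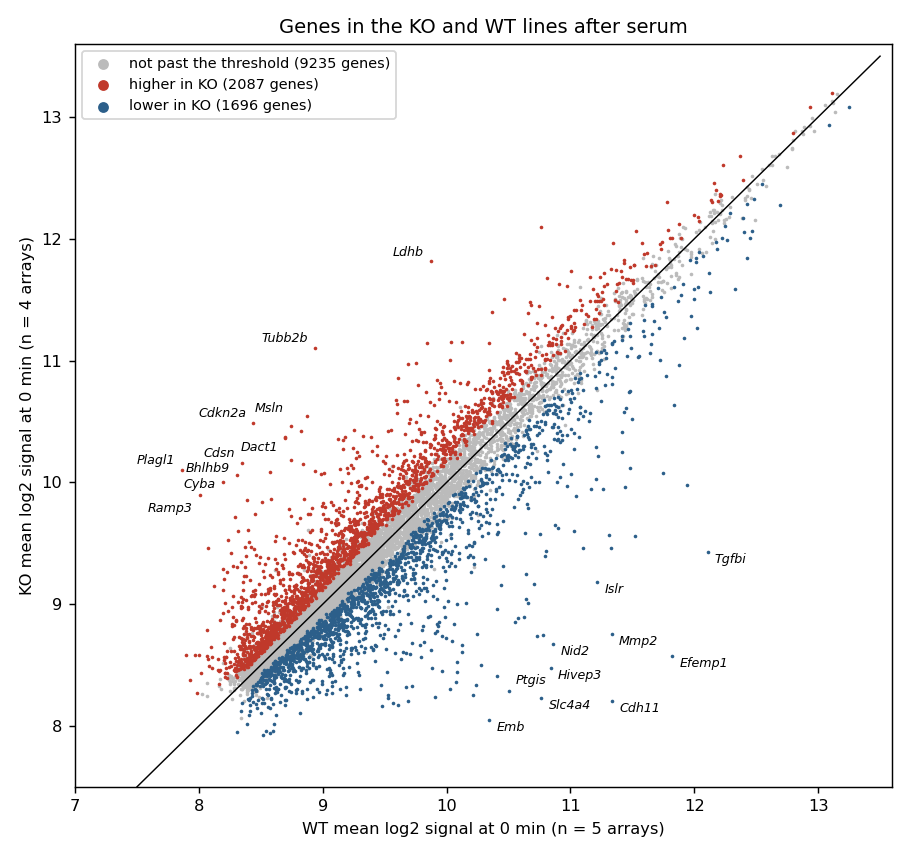
Mean log2 signal of each of the 13018 genes in KO (vertical axis, n = 4 arrays) against WT (horizontal axis, n = 5 arrays) at 0 min, on log2 axes with the line of equal signal; red points are called higher in KO (2087 genes), blue points lower (1696 genes) and grey points are not past the threshold. The labelled genes are the 10 highest and 10 lowest, which stand away from the diagonal, with Efemp1 and Cdh11 farthest below it and Plagl1 farthest above it.

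Plagl1, an imprinted zinc-finger transcription factor, had the largest rise among called genes. It had 10.25, 10.29, 9.96 and 9.92 in KO, against 7.87, 7.92, 7.85, 7.80 and 7.87 in WT. The WT arrays were all under the floor, and KO was at least 3.92-fold higher (difference 2.24 ± 0.10, adjusted p = 4.52e-22). Ramp3, which partners the calcitonin receptor-like receptor at the cell surface, had 9.70, 9.72, 9.90 and 10.26 in KO, against 8.04, 8.10, 8.05, 7.95 and 7.92 in WT, and was at least 3.39-fold higher in KO (difference 1.88 ± 0.090, adjusted p = 2.02e-21). On the lower side Emb, a membrane glycoprotein that escorts monocarboxylate transporters, had 8.05, 8.0, 8.09 and 8.07 in KO, against 10.54, 10.33, 10.08, 10.37 and 10.41 in WT, and was at least 4.64-fold lower in KO (difference -2.29 ± 0.090, adjusted p = 1.31e-24). These were the 3 genes among the 20 with the largest differences for which 1 line lay at the floor. Their promoters, 250 bases before the RefSeq start in GRCm38.p6, are shown because the signal was near absent from 1 line, with each CG dinucleotide in capitals.
Plagl1, chr10:13090582-13090831, plus strand: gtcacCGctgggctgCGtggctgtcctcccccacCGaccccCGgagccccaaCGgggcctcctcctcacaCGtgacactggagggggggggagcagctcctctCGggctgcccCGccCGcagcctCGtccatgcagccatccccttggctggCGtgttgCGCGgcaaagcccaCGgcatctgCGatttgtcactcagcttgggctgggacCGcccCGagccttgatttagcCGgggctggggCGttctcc
Ramp3, chr11:6658283-6658532, plus strand: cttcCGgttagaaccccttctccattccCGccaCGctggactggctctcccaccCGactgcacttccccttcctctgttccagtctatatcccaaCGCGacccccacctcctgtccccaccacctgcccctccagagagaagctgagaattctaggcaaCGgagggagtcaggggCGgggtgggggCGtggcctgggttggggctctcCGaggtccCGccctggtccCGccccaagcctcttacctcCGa
Emb, chr13:117220323-117220572, plus strand: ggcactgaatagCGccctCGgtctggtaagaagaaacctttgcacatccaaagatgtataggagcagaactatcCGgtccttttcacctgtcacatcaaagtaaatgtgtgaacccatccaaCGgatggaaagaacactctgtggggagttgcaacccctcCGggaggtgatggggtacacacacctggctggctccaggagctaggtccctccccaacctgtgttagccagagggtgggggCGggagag
The windows hold 19 CG dinucleotides for Plagl1, 13 for Ramp3 and 6 for Emb, against a median of 6 over the promoters of 27025 genes. As many or more are found in 21.6% of those genes for Plagl1, in 33.9% for Ramp3 and in 52.6% for Emb. Methylation was not measured in these samples.

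Others among the 10 highest belong to the cytoskeleton, the cell cycle and metabolism. Tubb2b, a beta-tubulin of developing neurons, was at 11.11 ± 0.24 in KO and 8.94 ± 0.19 in WT, 4.49-fold higher in KO (difference 2.17 ± 0.14, adjusted p = 5.02e-17). Cdkn2a, which encodes the cell-cycle inhibitors p16INK4a and p19ARF, had 10.82, 10.54, 10.55 and 10.04 in KO, against 8.41, 8.33, 8.56, 8.46 and 8.44 in WT. All KO arrays were above all WT arrays, and WT was at the level of the array median (difference 2.05 ± 0.15, adjusted p = 2.05e-15). Ldhb, the lactate dehydrogenase subunit that favours pyruvate formation, was 11.82 ± 0.044 in KO and 9.87 ± 0.15 in WT, 3.84-fold higher in KO (difference 1.94 ± 0.081, adjusted p = 1.26e-23), with all 4 of its probe sets called higher. Cyba, the p22phox subunit of NADPH oxidases, was 10.00 ± 0.077 in KO and 8.19 ± 0.13 in WT, 3.5-fold higher in KO (difference 1.81 ± 0.059, adjusted p = 1.5e-27). Cdsn, an adhesion protein of the cornified skin layer, was 10.16 ± 0.25 in KO and 8.35 ± 0.045 in WT (difference 1.81 ± 0.17). Bhlhb9 was 10.06 ± 0.070 in KO and 8.31 ± 0.12 in WT (difference 1.75 ± 0.061). Msln, the surface protein mesothelin, had 10.62, 10.71, 10.42 and 10.10 in KO, against 8.66, 8.75, 8.89, 8.74 and 8.69 in WT. The 4 KO values all exceeded the 5 WT values (difference 1.71 ± 0.15, adjusted p = 1.51e-12), and the other mesothelial markers were at or under 8.61 in both lines. Dact1, a Dishevelled-binding regulator of Wnt signals, was 10.38 ± 0.13 in KO and 8.69 ± 0.072 in WT (difference 1.68 ± 0.076), and its difference at 120 min of actinomycin D was 0.60.

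The 10 lowest were led by matrix and adhesion genes. Efemp1, the matrix glycoprotein fibulin-3, had 8.61, 8.47, 8.68 and 8.53 in KO, against 11.73, 11.70, 11.85, 11.91 and 11.91 in WT. It was 9.49-fold lower in KO, with a difference of -3.25 ± 0.068, adjusted p = 6.78e-35, and no KO array came near a WT array. Cdh11, the cadherin of mesenchymal cells, had 8.15, 8.26, 8.25 and 8.15 in KO, against 11.45, 11.30, 11.36, 11.34 and 11.24 in WT. The KO arrays lay below the array median and the WT arrays far above it, 8.77-fold lower in KO (difference -3.13 ± 0.050, adjusted p = 1.57e-39), and both of its probe sets were called lower. Tgfbi, a matrix protein that binds integrins, had 9.80, 9.69, 9.83 and 8.40 in KO, against 12.12, 11.95, 12.21, 12.04 and 12.22 in WT. KO replicate 4 stood well below the other 3 KO arrays, and all 4 were below WT, with a difference of -2.68 ± 0.35, adjusted p = 6.19e-08 and all 4 probe sets lower. Mmp2, the gelatinase that cuts denatured and basement membrane collagen, was 8.76 ± 0.039 in KO and 11.33 ± 0.12 in WT, 5.97-fold lower in KO (difference -2.58 ± 0.082, adjusted p = 6.61e-28). Nid2, a basement membrane linker, was 8.67 ± 0.083 in KO and 10.86 ± 0.16 in WT, 4.56-fold lower in KO (difference -2.19 ± 0.077, adjusted p = 2.05e-26), and Islr, a leucine-rich repeat protein of mesenchymal stromal cells, was 9.18 ± 0.66 in KO and 11.22 ± 0.087 in WT, 4.1-fold lower in KO (difference -2.03 ± 0.24, adjusted p = 2.64e-09). KO replicate 4 of Islr, at 10.17, stood above the other 3 KO arrays and still below every WT array.

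Slc4a4, a sodium bicarbonate cotransporter, had 8.20, 8.18, 8.22 and 8.31 in KO, against 10.84, 10.70, 10.88, 10.79 and 10.62 in WT, and all 4 of its probe sets were lower in KO (difference -2.54 ± 0.054, adjusted p = 9.28e-35 in the one used). Ptgis, the prostacyclin synthase, was 8.29 ± 0.035 in KO and 10.50 ± 0.17 in WT, 4.65-fold lower in KO (difference -2.22 ± 0.10, adjusted p = 2.4e-22). Hivep3, a zinc-finger transcription factor, was 8.47 ± 0.063 in KO and 10.84 ± 0.092 in WT (difference -2.36 ± 0.077). Non-overlapping arrays were part of the choice of these 20 genes; among all 13018 genes the KO arrays lay wholly above WT for 1601 (12.3%) and wholly below for 1260 (9.68%). All 20 were also called in the same direction at 120 min, where 36.5% of all genes were called, in arrays of the same lines and experiments that the comparison at 0 min does not use. Of the 8 with more than 1 probe set, 7 had every probe set called the same way, and Emb had 2 of 3.

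**Figure D2:**
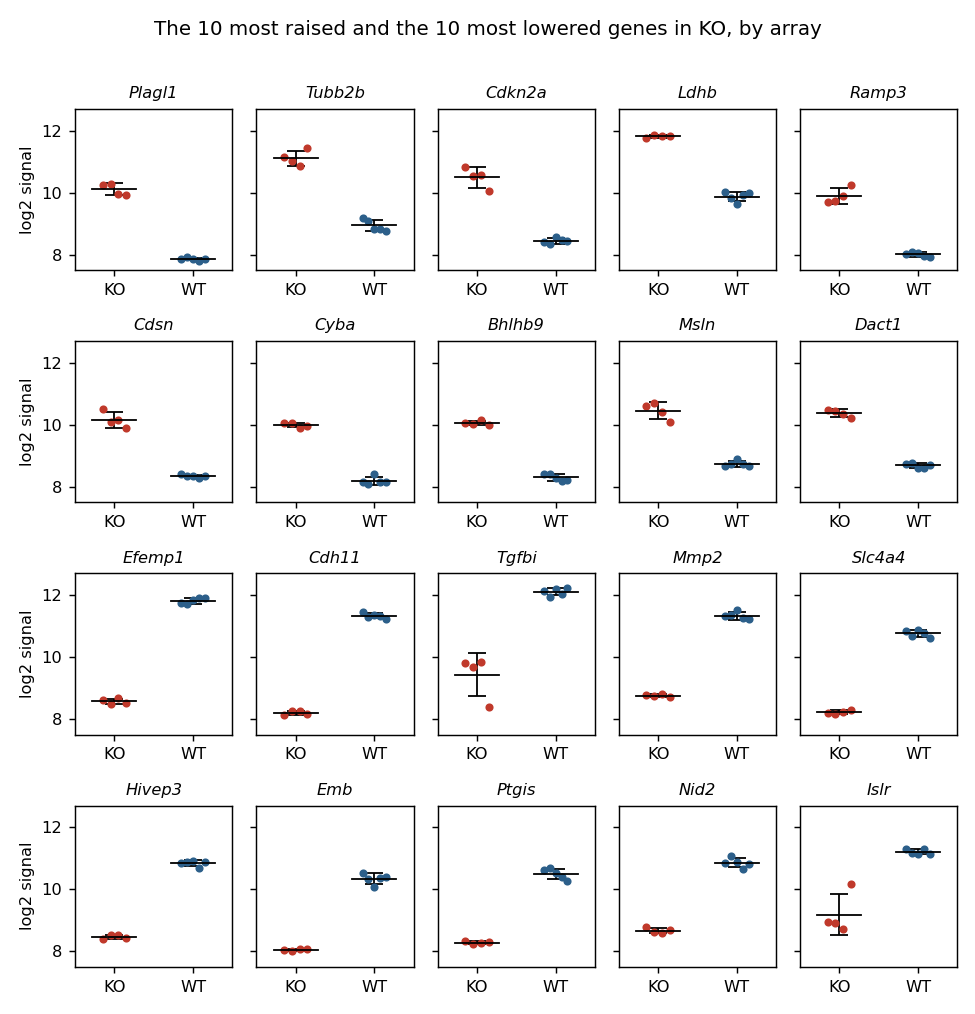
Log2 signal of the 10 most raised genes (top 2 panel lines) and the 10 most lowered genes (lower 2 panel lines), with KO left (4 red points) and WT right (5 blue points) in each panel; horizontal lines are means and bars are SD. The KO points and the WT points do not overlap in any panel, as the choice of these genes required, and Tgfbi shows KO replicate 4 at 8.40, apart from the other KO arrays.

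Transcription factors that mark mesenchymal position changed in both directions. Of 64 tested (of 94 listed), 12 were higher in KO (18.8%) and 17 lower (26.6%), against 16% and 13% of all genes, and the list's median difference was -0.01 against 0.01 over all genes. Foxd1, a forkhead factor of stromal and cranial mesenchyme, had 8.60, 8.53, 8.80 and 8.49 in KO, against 9.96, 10.31, 10.04, 10.10 and 10.20 in WT. All KO arrays lay under all WT arrays by more than 1 unit, with a difference of -1.52 ± 0.069, adjusted p = 2.54e-22. Ebf1, a factor of adipocyte and mural cell precursors, was 8.69 ± 0.21 in KO and 10.04 ± 0.37 in WT (difference -1.35 ± 0.17), with 4 of 5 probe sets lower. The homeobox partners Meis1 and Meis2 went opposite ways: Meis2 was 9.33 ± 0.097 in KO and 10.22 ± 0.17 in WT (difference -0.89 ± 0.10), and Meis1 was 9.84 ± 0.099 in KO and 9.06 ± 0.099 in WT (difference 0.77 ± 0.061). Foxf1, a forkhead factor of visceral mesoderm, had 9.59, 9.77, 9.21 and 9.51 in KO, against 8.68, 8.72, 8.31, 8.69 and 8.69 in WT. Its KO arrays were all above WT, as were those of Foxc2, a factor of paraxial and vascular mesenchyme, at 10.57 ± 0.27 in KO and 9.60 ± 0.30 in WT (difference 0.97 ± 0.15), and of Tbx3, a T-box factor of limb development, at 9.74 ± 0.056 in KO and 8.90 ± 0.16 in WT (difference 0.84 ± 0.060). In experiments 1 to 3 alone 13 genes of the list were higher in KO and 15 lower, and in experiments 4 and 5 alone 10 were higher and 18 lower. The related genes Foxc1 and Foxf2 were also higher (0.37 ± 0.091 and 0.31 ± 0.072). Irx2 and Irx5, Iroquois homeobox genes, were lower (-0.55 ± 0.044 and -0.40 ± 0.056), as was Scx, the tendon factor scleraxis (-0.54 ± 0.054). Dlx1 and Dlx2 were lower by less, at -0.34 ± 0.049 and -0.19 ± 0.046.

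Integrins and their adaptors had 20 members tested of 31 listed, with 2 higher in KO (10.0%) and 6 lower (30.0%). Over all genes the shares were 16% and 13%. The list's median difference was 0.067, against 0.01 over all genes. The subunits Itgb1, Itgav, Itgb5, Itga3 and Itga6 were not called (0.20 ± 0.12, -0.03 ± 0.062, 0.13 ± 0.090, 0.11 ± 0.061 and 0.15 ± 0.076). Itga1, the collagen-binding alpha-1 subunit, had 8.83, 8.80, 8.73 and 9.22 in KO, against 9.90, 10.12, 9.73, 10.15 and 10.04 in WT. The groups did not overlap, and the difference was -1.10 ± 0.11, adjusted p = 1.15e-10. Itga5, the fibronectin receptor subunit, was 10.50 ± 0.26 in KO and 11.15 ± 0.16 in WT (difference -0.65 ± 0.19), with all 4 probe sets lower, and Itgbl1, an integrin beta-like secreted protein, was 8.42 ± 0.095 in KO and 9.16 ± 0.44 in WT (difference -0.75 ± 0.20). The adaptors Lims1, Tln2 and Parva were lower too (-0.50 ± 0.055, -0.47 ± 0.099 and -0.25 ± 0.090). The 2 that were higher were Itga8, which pairs with beta-1 to bind RGD ligands, at 9.08 ± 0.37 in KO and 8.43 ± 0.080 in WT (difference 0.65 ± 0.16), and Itgb8, the partner of alpha-v in activating TGF-beta, at 9.04 ± 0.066 in KO and 8.64 ± 0.16 in WT (difference 0.40 ± 0.087). With the replicate number as a block, 4 integrin genes were higher in place of 2. The call for Itga5 ended without replicate 1 (adjusted p = 0.0527) and in experiments 4 and 5 alone (0.546).

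Cadherins and catenins changed in both directions, 7 of 36 tested higher in KO (19.4%) and 8 lower (22.2%), beside 16% and 13% over all genes. Beside Cdh11, the mesenchymal cadherin Cdh2 was 10.60 ± 0.15 in KO and 10.99 ± 0.10 in WT (difference -0.38 ± 0.079), and its cytoplasmic partners Ctnnd1 and Ctnnb1 were lower by less (-0.31 ± 0.067 and -0.20 ± 0.049). Pkp2, a plakophilin of desmosomes and area composita junctions, had 8.61, 8.62, 8.70 and 8.57 in KO, against 9.85, 10.00, 9.94, 9.62 and 9.95 in WT. No KO array reached a WT array (difference -1.25 ± 0.075, adjusted p = 6.98e-18), and 3 of 4 probe sets were called lower. The giant protocadherin Fat1 was 9.79 ± 0.11 in KO and 10.66 ± 0.085 in WT (difference -0.87 ± 0.064). Jup, or plakoglobin, which links both desmosomal and classical cadherins, was higher at 8.98 ± 0.062 in KO and 8.35 ± 0.067 in WT (difference 0.63 ± 0.057). Of the delta-protocadherins listed and tested, Pcdh19, Pcdh9, Pcdh18 and Pcdh17 were higher in KO (1.06 ± 0.15, 0.66 ± 0.047, 0.59 ± 0.047 and 0.44 ± 0.063). Pcdh10 and Pcdh1 were not called (0.04 ± 0.033 and 0.01 ± 0.082), and Pcdh7 was lower (-0.36 ± 0.091). The difference in Pcdh7 was -0.24 in experiments 4 and 5 alone. At 120 min of actinomycin D it was 0.08 and not called.

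Adhesion molecules of the immunoglobulin family had 8 of 27 tested higher in KO (29.6%) and 4 lower (14.8%). The shares over all genes were 16% and 13%. The largest difference was in Cntn3, a contactin anchored by a lipid, with 8.33, 8.30, 8.37 and 8.35 in KO, against 10.41, 10.41, 10.17, 10.26 and 9.94 in WT. The KO values were below the array medians and all WT values far above them (difference -1.90 ± 0.076, adjusted p = 1.99e-24). Vcam1, the ligand of integrin alpha-4, had 10.72, 10.90, 10.90 and 10.44 in KO, against 9.79, 9.79, 9.61, 9.92 and 10.07 in WT. It was higher in KO in all arrays, with a difference of 0.91 ± 0.11, adjusted p = 1.55e-08, though in experiments 4 and 5 alone the adjusted p was 0.0648. Nectin2 and Pvr of the nectin group were higher as well, Nectin2 at 9.56 ± 0.21 in KO and 8.62 ± 0.065 in WT (difference 0.94 ± 0.077) and Pvr at 10.69 ± 0.44 in KO and 9.94 ± 0.13 in WT (difference 0.75 ± 0.16). So were Alcam and Ncam1 (0.69 ± 0.10 and 0.67 ± 0.15). Ncam1 had overlapping arrays, and its difference was 0.93 in experiments 1 to 3 alone and 0.10 in experiments 4 and 5 alone. Neo1, the netrin and RGM receptor neogenin, was 9.51 ± 0.072 in KO and 10.22 ± 0.10 in WT (difference -0.71 ± 0.076), but of its 4 probe sets 2 were called lower and 1 higher. Boc, a Hedgehog co-receptor, was 8.72 ± 0.079 in KO and 8.97 ± 0.058 in WT (difference -0.25 ± 0.040). Only 1 of 3 Boc probe sets was called, and at 120 min its difference was -0.07 and not called. Cdon of the same list was higher (0.31 ± 0.12), with overlapping arrays. In experiments 1 to 3 alone 8 genes of the family were higher in KO and 7 lower, and in experiments 4 and 5 alone 5 were higher and 3 lower.

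Axon guidance genes, which fibroblasts also use to steer migration, had 14 of 50 tested higher in KO (28%) and 6 lower (12%), beside 16% and 13% over all genes, with a median of 0.045. A ligand and receptor of 1 pathway were both higher: Slit2 had 10.19, 10.42, 10.24 and 10.54 in KO, against 9.17, 9.10, 9.13, 9.28 and 9.14 in WT, and its receptor Robo1 had 9.48, 9.44, 9.44 and 9.18 in KO, against 8.50, 8.54, 8.48, 8.45 and 8.49 in WT. Neither gene showed overlap between the lines, with differences of 1.18 ± 0.083 and 0.89 ± 0.064. Nrp1, the neuropilin that binds class 3 semaphorins and VEGF, was 11.01 ± 0.22 in KO and 10.03 ± 0.23 in WT (difference 0.98 ± 0.13), and Sema3c, one of its ligands, was 10.82 ± 0.060 in KO and 9.95 ± 0.29 in WT (difference 0.87 ± 0.13). Other semaphorins were lower, Sema7a at 8.19 ± 0.028 in KO and 9.56 ± 0.18 in WT, 2.6-fold lower in KO (difference -1.38 ± 0.11, adjusted p = 4.84e-14) and Sema3f at 9.07 ± 0.15 in KO and 9.65 ± 0.079 in WT (difference -0.58 ± 0.077). Among ephrins and their receptors, Efna5 and Epha7 were higher (0.60 ± 0.081 and 0.55 ± 0.082), and Epha4 and Ephb6 were lower (-0.65 ± 0.090 and -0.53 ± 0.070), Epha4 in all 5 of its probe sets. Experiments 1 to 3 alone gave 15 genes higher in KO and 6 lower, and experiments 4 and 5 alone 11 and 7.

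Heparan sulphate proteoglycans and the enzymes that build their chains had 5 of 29 higher in KO (17.2%) and 8 lower (27.6%). The shares over all genes were 16% and 13%. Hs6st2, which adds 6-O-sulphate, was 10.25 ± 0.52 in KO and 11.41 ± 0.21 in WT (difference -1.16 ± 0.17), and Sulf2, which removes it outside the cell, was 9.13 ± 0.24 in KO and 8.73 ± 0.13 in WT (difference 0.40 ± 0.11). The Sulf2 probe sets disagreed, with 1 called higher and 2 lower, so its direction is uncertain. The glypicans Gpc4 and Gpc6 were 9.37 ± 0.35 in KO and 10.31 ± 0.16 in WT (difference -0.94 ± 0.14) and 9.47 ± 0.17 in KO and 10.21 ± 0.12 in WT (difference -0.73 ± 0.080), and the syndecan Sdc3 was lower at -0.57 ± 0.12. Enzymes that build or sulphate the chains went both ways. Ndst2, Hs6st1 and Ext2 were lower, with arrays apart (-0.40 ± 0.056, -0.37 ± 0.081 and -0.36 ± 0.045), and Extl3 was higher (0.21 ± 0.048). Extl2 was 9.20 ± 0.082 in KO and 8.87 ± 0.15 in WT (difference 0.33 ± 0.081), and Ext1 was 10.24 ± 0.21 in KO and 9.97 ± 0.061 in WT (difference 0.27 ± 0.087), with overlapping arrays. The call for Sulf2 ended without replicate 3 (adjusted p = 0.161). That for Ext1 ended without replicate 2 (0.0944), without replicate 4 (0.146), in experiments 1 to 3 (0.16) and in the 9 arrays alone (0.0556). In experiments 4 and 5 alone, Extl2 and Gpc4 were no longer called (adjusted p = 0.344 and 0.0937). Without replicate 3, and also without replicate 4, 3 genes of the list were higher in place of 5.

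Extracellular proteases and inhibitors had 5 of 34 higher in KO (14.7%) and 9 lower (26.5%), beside 16% and 13% over all genes. Beside Mmp2, its activator Mmp14 and its inhibitor Timp2 were both higher (0.36 ± 0.095 and 0.29 ± 0.036), in 1 of 3 and 5 of 6 probe sets. Timp1 and Reck, further inhibitors, were lower (-0.35 ± 0.11 and -0.37 ± 0.057), and Timp3 and Timp4 were not called (-0.41 ± 0.26 and 0.04 ± 0.037). With the replicate number as a block, Timp3 was called lower (adjusted p = 2.24e-08). Timp1 had overlapping arrays, and in experiments 4 and 5 alone its difference was 0.11 (adjusted p = 0.792). Htra1, a secreted serine protease, had 10.38, 10.52, 10.61 and 10.15 in KO, against 9.03, 9.01, 8.72, 8.67 and 8.69 in WT. All KO arrays exceeded all WT arrays (difference 1.59 ± 0.11, adjusted p = 1.26e-15), and the related Htra3 was lower (-0.49 ± 0.051). Adam19 was 9.67 ± 0.22 in KO and 8.79 ± 0.14 in WT (difference 0.88 ± 0.11), and Adamts9, which cuts versican and aggrecan, was 8.96 ± 0.088 in KO and 8.40 ± 0.056 in WT (difference 0.56 ± 0.042). Adam10, a sheddase of Notch and cadherins, was 10.38 ± 0.023 in KO and 10.97 ± 0.031 in WT (difference -0.59 ± 0.052), and Adamtsl3, a protein without the protease domain, was 9.32 ± 0.14 in KO and 10.46 ± 0.14 in WT (difference -1.14 ± 0.095).

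**Figure D3:**
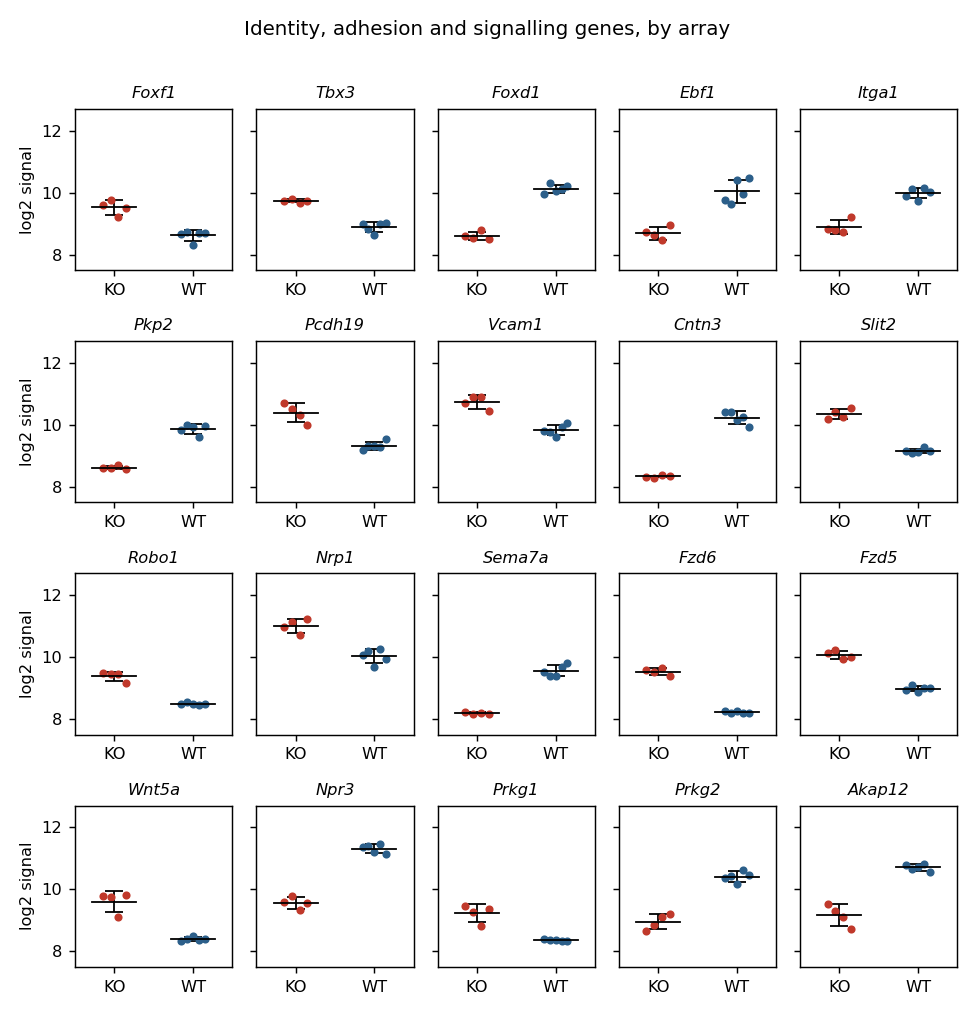
Log2 signal in KO (left, 4 red points) and WT (right, 5 blue points) of 20 genes of the identity, adhesion and signalling lists, with means as horizontal lines and SD as bars. Both directions occur within a kind of gene: Slit2, Robo1, Nrp1, Fzd6, Fzd5 and Wnt5a are higher in KO, and Foxd1, Cntn3, Sema7a and Npr3 are lower, with no overlap between the lines in any panel.

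Wnt signalling genes called higher in KO outnumbered those called lower, 14 of 54 tested (25.9%) and 6 (11.1%), beside 16% higher and 13% lower over all genes, with a median of 0.042. The counts were 14 and 4 in experiments 1 to 3 alone and 11 and 6 in experiments 4 and 5 alone. Wnt5a, a ligand of the beta-catenin-independent branch, had 9.77, 9.75, 9.09 and 9.81 in KO, against 8.34, 8.39, 8.49, 8.38 and 8.41 in WT. The WT arrays lay at or below the array median, and KO replicate 3 was the lowest of the KO arrays (difference 1.21 ± 0.11, adjusted p = 1.19e-11). The Frizzled receptors Fzd6 and Fzd5 followed the same direction. Fzd6 had 9.58, 9.53, 9.63 and 9.38 in KO, against 8.25, 8.21, 8.27, 8.21 and 8.21 in WT, a difference of 1.30 ± 0.041, adjusted p = 5.12e-28. Fzd5 was 10.07 ± 0.13 in KO and 8.99 ± 0.080 in WT (difference 1.08 ± 0.073). Ror2, the Wnt5a co-receptor, and Fzd2 were higher by less (0.41 ± 0.12 and 0.49 ± 0.076), as were the feedback inhibitors Notum and Apcdd1 (0.79 ± 0.13 and 0.38 ± 0.054). Ryk, another Wnt receptor, was 10.07 ± 0.094 in KO and 10.52 ± 0.13 in WT (difference -0.46 ± 0.065). Rspo2, an R-spondin that strengthens Wnt responses, was 9.76 ± 0.27 in KO and 10.33 ± 0.20 in WT (difference -0.57 ± 0.13) with overlapping arrays. Fzd1 was 9.0 ± 0.093 in KO and 9.25 ± 0.15 in WT (difference -0.25 ± 0.072), also with overlap. The call for Rspo2 ended in experiments 4 and 5 alone (adjusted p = 0.992). That for Fzd1 ended without replicate 2 (0.0638), without replicate 4 (0.071), in experiments 1 to 3 (0.118) and in the 9 arrays alone (0.0541).

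Hedgehog genes differed by little. Of 14 tested, 4 were higher in KO (28.6%) and 1 lower (7.14%), beside 16% and 13% over all genes. The transcription factor Gli2 was 8.65 ± 0.070 in KO and 8.47 ± 0.037 in WT (difference 0.18 ± 0.049). Ptchd1, a Patched-domain protein, was 8.77 ± 0.058 in KO and 8.56 ± 0.038 in WT (difference 0.21 ± 0.041), and Hhat, the acyltransferase of Hedgehog ligands, was 8.39 ± 0.026 in KO and 8.61 ± 0.076 in WT (difference -0.21 ± 0.035). Gas1, a Hedgehog co-receptor, was 11.18 ± 0.15 in KO and 10.88 ± 0.16 in WT (difference 0.30 ± 0.11). Its arrays overlapped, and 1 of its 3 probe sets was called. Its call ended without replicate 1 (adjusted p = 0.154), 3 (0.0921) or 4 (0.0632), after background subtraction (0.0619) and within either set of experiments (0.0569 in 1 to 3 and 0.581 in 4 and 5), and Ptchd1 was not called in experiments 4 and 5 (0.105). Without replicate 1, 2 Hedgehog genes were higher in place of 4, and without replicate 3 or 5, 2 were lower in place of 1.

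Of 25 Hippo pathway genes and YAP targets tested, 3 were higher in KO (12%) and 2 lower (8.0%), below the share over all genes in both directions. The list's median difference, 0.088, was nonetheless the highest of the main lists, against 0.01 over all genes. The 2 related coactivators differed in sign: Yap1 was 9.63 ± 0.055 in KO and 9.94 ± 0.13 in WT (difference -0.31 ± 0.065) and Wwtr1, which encodes TAZ, was 11.28 ± 0.15 in KO and 10.92 ± 0.12 in WT (difference 0.36 ± 0.095). Vgll3, another partner of TEAD factors, was 11.63 ± 0.20 in KO and 10.91 ± 0.11 in WT (difference 0.73 ± 0.097). Ankrd1, a target of YAP, was 10.74 ± 0.40 in KO and 11.47 ± 0.18 in WT (difference -0.73 ± 0.12), with overlapping arrays and a difference of -0.12 at 120 min. The kinase Stk4 was 10.26 ± 0.17 in KO and 9.82 ± 0.15 in WT (difference 0.43 ± 0.12), and its call ended without replicate 3 (adjusted p = 0.0503). In experiments 4 and 5 alone neither Stk4 (0.304) nor Wwtr1 (0.135) was called. With the replicate number as a block, 6 genes of this list were higher in place of 3. In experiments 4 and 5 alone 6 were lower in place of 2.

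Receptors coupled to G proteins and related receptors had 7 of 38 tested higher in KO and 7 lower (18.4% each). Over all genes 16% were higher and 13% lower. Npr3, the clearance receptor of natriuretic peptides, had 9.60, 9.77, 9.32 and 9.58 in KO, against 11.37, 11.40, 11.20, 11.46 and 11.13 in WT. Every KO array was under every WT array, and all 3 probe sets were lower, with a difference of -1.75 ± 0.10, adjusted p = 2.36e-18 in the one used. Among receptors for lysophospholipids, Lpar1 and Lpar4, for lysophosphatidic acid, were higher (0.63 ± 0.12 and 0.36 ± 0.072), and S1pr2 and S1pr3, for sphingosine 1-phosphate, were lower (-0.53 ± 0.066 and -0.62 ± 0.12), while Lpar2, Lpar3 and S1pr1 were not called (0.06 ± 0.051, 0.01 ± 0.040 and 0.11 ± 0.11). The orphan receptors Gpr153 and Gprc5a were 9.51 ± 0.11 in KO and 8.40 ± 0.11 in WT (difference 1.11 ± 0.068) and 10.22 ± 0.28 in KO and 9.51 ± 0.10 in WT (difference 0.71 ± 0.094).

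Cyclic nucleotide signalling had 8 of 37 higher in KO (21.6%) and 6 lower (16.2%), beside 16% and 13% over all genes. The 2 cGMP-dependent kinases went in opposite directions. Prkg1 had 9.48, 9.28, 8.82 and 9.35 in KO, against 8.40, 8.36, 8.36, 8.35 and 8.35 in WT, and Prkg2 had 8.67, 8.85, 9.12 and 9.21 in KO, against 10.38, 10.42, 10.16, 10.62 and 10.47 in WT. All arrays of the lines were apart for both, with differences of 0.87 ± 0.11 and -1.45 ± 0.15. Among the anchoring proteins of protein kinase A, Akap12 had 9.54, 9.31, 9.11 and 8.71 in KO, against 10.80, 10.66, 10.71, 10.81 and 10.56 in WT. It was lower in every KO array (difference -1.54 ± 0.17, adjusted p = 7.74e-10), and Akap2 was 10.15 ± 0.041 in KO and 10.94 ± 0.042 in WT (difference -0.79 ± 0.056), while Akap13 was 9.83 ± 0.087 in KO and 9.35 ± 0.12 in WT (difference 0.47 ± 0.089). Only 1 of 5 Akap13 probe sets was called, and it was not called in experiments 4 and 5 alone (adjusted p = 0.0962). Pde7a, a phosphodiesterase of cAMP, was 10.20 ± 0.14 in KO and 9.27 ± 0.073 in WT (difference 0.93 ± 0.080), with all 7 of its probe sets higher.

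Ion channels and gap junctions had 5 of 39 higher in KO (12.8%) and 4 lower (10.3%), below the share over all genes. Clic4, an intracellular chloride channel protein, was 10.75 ± 0.12 in KO and 11.48 ± 0.13 in WT (difference -0.72 ± 0.072). The mechanically gated channel Piezo1 was 10.28 ± 0.15 in KO and 9.89 ± 0.087 in WT (difference 0.39 ± 0.086) and the connexin Gjc1 was 10.28 ± 0.075 in KO and 9.97 ± 0.13 in WT (difference 0.31 ± 0.056). Trpm7, a cation channel with a kinase domain, was 9.97 ± 0.097 in KO and 10.27 ± 0.081 in WT (difference -0.30 ± 0.068), and Ano6, a calcium-activated scramblase, was 9.53 ± 0.16 in KO and 9.88 ± 0.048 in WT (difference -0.35 ± 0.082) (not called in experiments 4 and 5, adjusted p = 0.206). Kcnn4, a calcium-activated potassium channel, was 9.83 ± 0.20 in KO and 9.29 ± 0.18 in WT (difference 0.54 ± 0.16). Its call ended without replicate 2 (adjusted p = 0.0671) or 4 (0.0575). Without replicate 4, 3 genes of the list were higher in place of 5, and with the replicate number as a block 8 were, as in either set of experiments alone.

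Retinoid genes had 5 of 16 higher in KO (31.2%) and 3 lower (18.8%), beside 16% and 13% over all genes. Rdh10, which makes retinaldehyde from retinol, had 9.74, 9.90, 9.78 and 10.03 in KO, against 8.90, 8.92, 8.60, 8.93 and 8.88 in WT. All KO arrays were higher (difference 1.02 ± 0.11, adjusted p = 1.89e-10). Aldh1a3 and Aldh1a1, enzymes of the next step of synthesis, had signals near the array medians or under them in both lines. Aldh1a3 was called higher at 8.54 ± 0.052 in KO and 8.43 ± 0.042 in WT (difference 0.11 ± 0.037), with overlapping arrays. Only 1 of its 2 probe sets was called, and its call ended in experiments 1 to 3 alone (adjusted p = 0.132). At 120 min Aldh1a3 was not called (difference 0.08, adjusted p = 0.069). Aldh1a1 was lower at 8.11 ± 0.031 in KO and 8.50 ± 0.21 in WT (difference -0.39 ± 0.080), its KO mean under the floor. Also lower was the related Aldh1a7 at 8.15 ± 0.020 in KO and 8.55 ± 0.22 in WT (difference -0.40 ± 0.093). Cyp26b1, which degrades retinoic acid, was 8.92 ± 0.24 in KO and 9.48 ± 0.20 in WT (difference -0.56 ± 0.13). Tgm2, the tissue transglutaminase, a retinoid-responsive gene, was 10.66 ± 0.13 in KO and 9.68 ± 0.19 in WT (difference 0.98 ± 0.14), with all 5 probe sets higher, and Nrip1, a nuclear receptor corepressor, was 8.97 ± 0.11 in KO and 8.67 ± 0.091 in WT (difference 0.30 ± 0.050). Without replicate 2, 3 or 4 in turn, 3 retinoid genes were higher in place of 5. With the filter on dim probe sets taken over the arrays at 0 min, 1 was lower in place of 3.

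**Figure D4:**
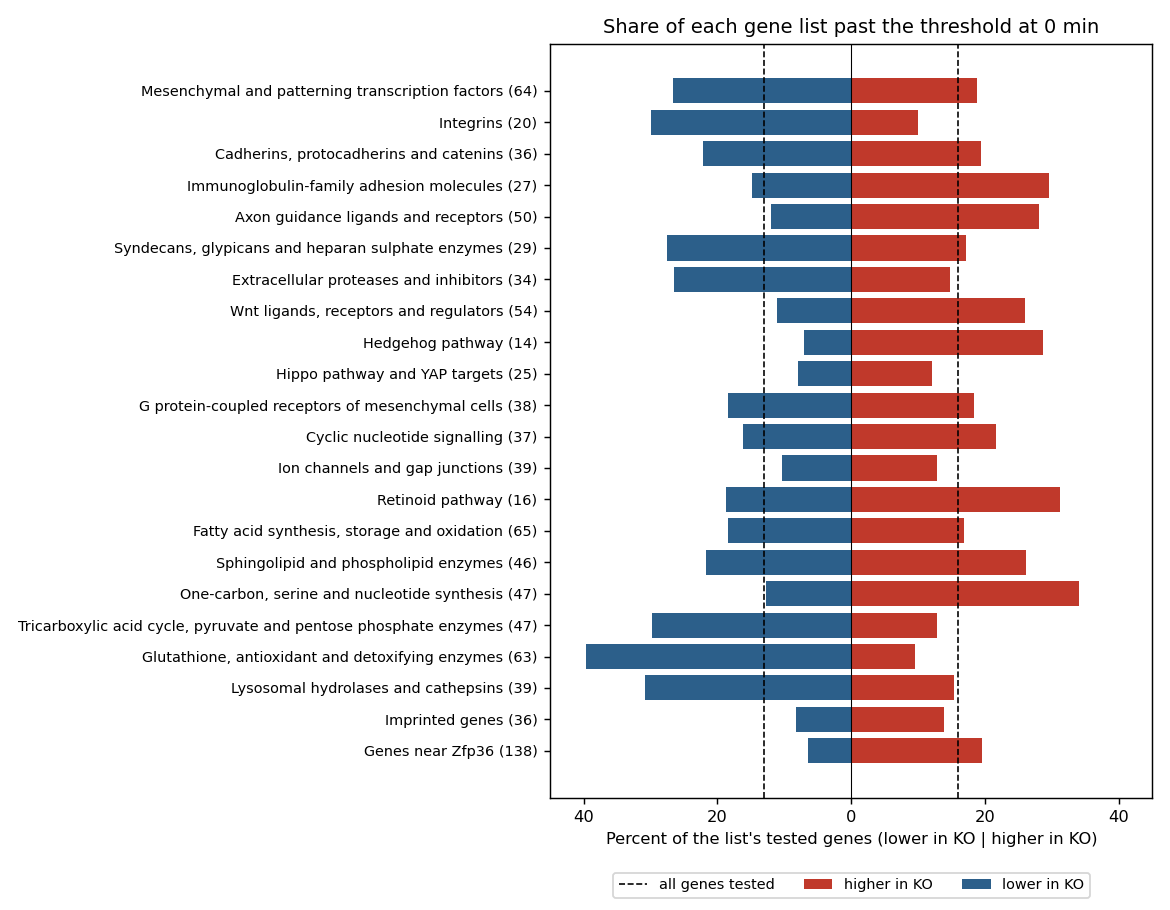
Share of each list's tested genes (numbers in brackets) called higher in KO (red, to the right) and lower in KO (blue, to the left) at 0 min, in percent; dashed lines are the shares over all 13018 genes, 16% higher and 13% lower. The glutathione and detoxifying list has the longest bar to the left (39.7%) and the one-carbon list the longest to the right (34.0%).

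Detoxifying and antioxidant enzymes were the list with the largest share lower in KO. Of 63 tested (of 75 listed), 25 were lower (39.7%) and 6 higher (9.52%), against 13% lower and 16% higher over all genes, and the median difference was -0.121. In experiments 1 to 3 alone 23 were lower and 8 higher, and in experiments 4 and 5 alone 20 were lower and 7 higher. Ephx1, the microsomal epoxide hydrolase, had 8.91, 8.73, 8.85 and 8.93 in KO, against 10.60, 10.67, 10.50, 10.47 and 10.53 in WT. The lines stood apart by more than 1 unit in every array, 3.25-fold lower in KO (difference -1.70 ± 0.047, adjusted p = 3.22e-30). Cyp1b1, a cytochrome P450 of steroid and hydrocarbon oxidation, had 9.34, 8.92, 9.12 and 9.26 in KO, against 10.37, 10.69, 10.40, 10.25 and 10.47 in WT. All KO arrays were lower (difference -1.28 ± 0.13, adjusted p = 3.56e-11). Several aldehyde dehydrogenases were lower: Aldh2, the mitochondrial enzyme, was 9.57 ± 0.096 in KO and 10.75 ± 0.14 in WT (difference -1.18 ± 0.10), and Aldh3a1, Aldh3b1 and Aldh3a2 were lower with differences of -0.59 ± 0.093, -0.57 ± 0.044 and -0.12 ± 0.044.

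Antioxidant proteins outside the glutathione system were among those lower in KO. The extracellular superoxide dismutase Sod3 was 8.44 ± 0.12 in KO and 9.52 ± 0.16 in WT (difference -1.08 ± 0.11), the cytosolic Sod1 11.33 ± 0.14 in KO and 11.59 ± 0.12 in WT (difference -0.26 ± 0.088) and catalase, Cat, 10.11 ± 0.049 in KO and 10.32 ± 0.093 in WT (difference -0.22 ± 0.080). The metallothioneins Mt2 and Mt1, which bind zinc and copper, were 10.41 ± 0.21 in KO and 11.42 ± 0.19 in WT (difference -1.01 ± 0.15) and 11.36 ± 0.23 in KO and 11.77 ± 0.24 in WT (difference -0.41 ± 0.15). The lactonases Pon3 and Pon2 were lower (-0.71 ± 0.063 and -0.34 ± 0.049), as were Aox1, an aldehyde oxidase (-0.76 ± 0.069), and Maoa, a monoamine oxidase (-0.47 ± 0.078).

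Glutathione transferases were mixed. Mgst2, Gsta4, Gstt1, Gstm2 and Gsto2 were lower in KO (-0.82 ± 0.093, -0.71 ± 0.098, -0.63 ± 0.16, -0.50 ± 0.063 and -0.12 ± 0.046). Gsto1 and Gstm7 were higher, at 11.45 ± 0.081 in KO and 10.74 ± 0.086 in WT (difference 0.71 ± 0.063) and 8.82 ± 0.092 in KO and 8.29 ± 0.064 in WT (difference 0.54 ± 0.055). Hmox1, the inducible heme oxygenase, had 11.21, 11.34, 11.03 and 11.04 in KO, against 10.23, 10.37, 10.04, 10.10 and 9.89 in WT. It was the highest of the list in KO relative to WT (difference 1.03 ± 0.15, adjusted p = 3.59e-07), and its arrays did not overlap. Genes that NRF2 is known to drive went different ways. Hmox1 was higher, as given above, and Srxn1 was lower (-0.49 ± 0.10). Nqo1, Gclm and Txnrd1 were not called (-0.0 ± 0.072, 0.12 ± 0.078 and 0.08 ± 0.054). Nfe2l2, which encodes NRF2, and Keap1 were not called either (-0.14 ± 0.12 and -0.13 ± 0.084). The core of the antioxidant response element, TGACNNNGC on either strand, was present in the 250 bases before the RefSeq start of 2 of 20 lower genes with a promoter in the table, of 1 of 5 higher genes and of 6 of 27 not called, against 13.8% of 10474 genes tested and 11.5% of 27025 promoters in all. With the replicate number as a block, 10 genes of the list were higher in place of 6.

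Enzymes of one-carbon metabolism, serine and nucleotide synthesis went the other way, 16 of 47 tested higher in KO (34.0%) and 6 lower (12.8%), beside 16% and 13% over all genes, with a median of 0.076. Experiments 1 to 3 alone gave 15 higher and 8 lower, and experiments 4 and 5 alone 11 higher and 6 lower. The serine route was represented at each step: Phgdh was 11.01 ± 0.11 in KO and 10.81 ± 0.089 in WT (difference 0.20 ± 0.076), Psat1 10.94 ± 0.20 in KO and 10.49 ± 0.15 in WT (difference 0.45 ± 0.096) and Psph 9.95 ± 0.16 in KO and 9.46 ± 0.088 in WT (difference 0.49 ± 0.087). Of the mitochondrial folate enzymes, Mthfd2, Shmt2 and Aldh1l2 were higher, and Mthfd2l and Mthfd1l were not called (-0.04 ± 0.094 and -0.02 ± 0.075). Mthfd2 had 10.62, 10.26, 9.96 and 10.65 in KO, against 9.36, 9.21, 9.19, 9.58 and 9.62 in WT. No KO array overlapped with WT (difference 0.98 ± 0.17, adjusted p = 8.57e-06), and Shmt2 and Aldh1l2 were 9.85 ± 0.28 in KO and 9.27 ± 0.13 in WT (difference 0.58 ± 0.14) and 9.68 ± 0.21 in KO and 9.29 ± 0.20 in WT (difference 0.39 ± 0.13). Cytosolic Shmt1 and Mthfd1 were not called (0.05 ± 0.047 and 0.09 ± 0.092). Ahcy, which hydrolyses S-adenosylhomocysteine, was 10.74 ± 0.13 in KO and 9.98 ± 0.18 in WT (difference 0.75 ± 0.10), and Cth, which makes cysteine from cystathionine, was 9.10 ± 0.10 in KO and 8.44 ± 0.057 in WT (difference 0.66 ± 0.075). Enzymes that build nucleotides went both ways. Gmps, Cad, Impdh1, Gart and Dhodh were higher (0.54 ± 0.079, 0.35 ± 0.086, 0.18 ± 0.045, 0.17 ± 0.047 and 0.14 ± 0.031). Prps2, which makes phosphoribosyl pyrophosphate, Rrm2b, a ribonucleotide reductase subunit, and Ctps, a CTP synthase, were lower (-0.47 ± 0.10, -0.20 ± 0.049 and -0.17 ± 0.051). Tyms, Rrm1, Rrm2, Atic and Adss were not called (-0.07 ± 0.077, 0.06 ± 0.15, 0.34 ± 0.24, -0.06 ± 0.078 and -0.05 ± 0.064).

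The 6 genes of that list lower in KO were Hprt, Mtap, Nnmt, Prps2, Rrm2b and Ctps. Hprt, which salvages hypoxanthine and guanine, had 8.32, 8.71, 8.35 and 8.38 in KO, against 10.21, 10.25, 9.93, 10.11 and 9.93 in WT. The KO arrays were at or near the array median and all WT arrays well above it, a difference of -1.65 ± 0.058, adjusted p = 1.9e-26. Mtap, which recovers methylthioadenosine, had 10.86, 10.89, 10.97 and 11.11 in KO, against 11.88, 11.80, 11.79, 11.95 and 11.96 in WT, with a difference of -0.92 ± 0.082, adjusted p = 2.01e-12 and all 4 probe sets lower. Nnmt, which methylates nicotinamide, was 8.50 ± 0.15 in KO and 9.13 ± 0.088 in WT (difference -0.63 ± 0.084). Aprt, which salvages adenine, was higher instead, at 10.61 ± 0.042 in KO and 10.28 ± 0.028 in WT (difference 0.33 ± 0.047).

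**Figure D5:**
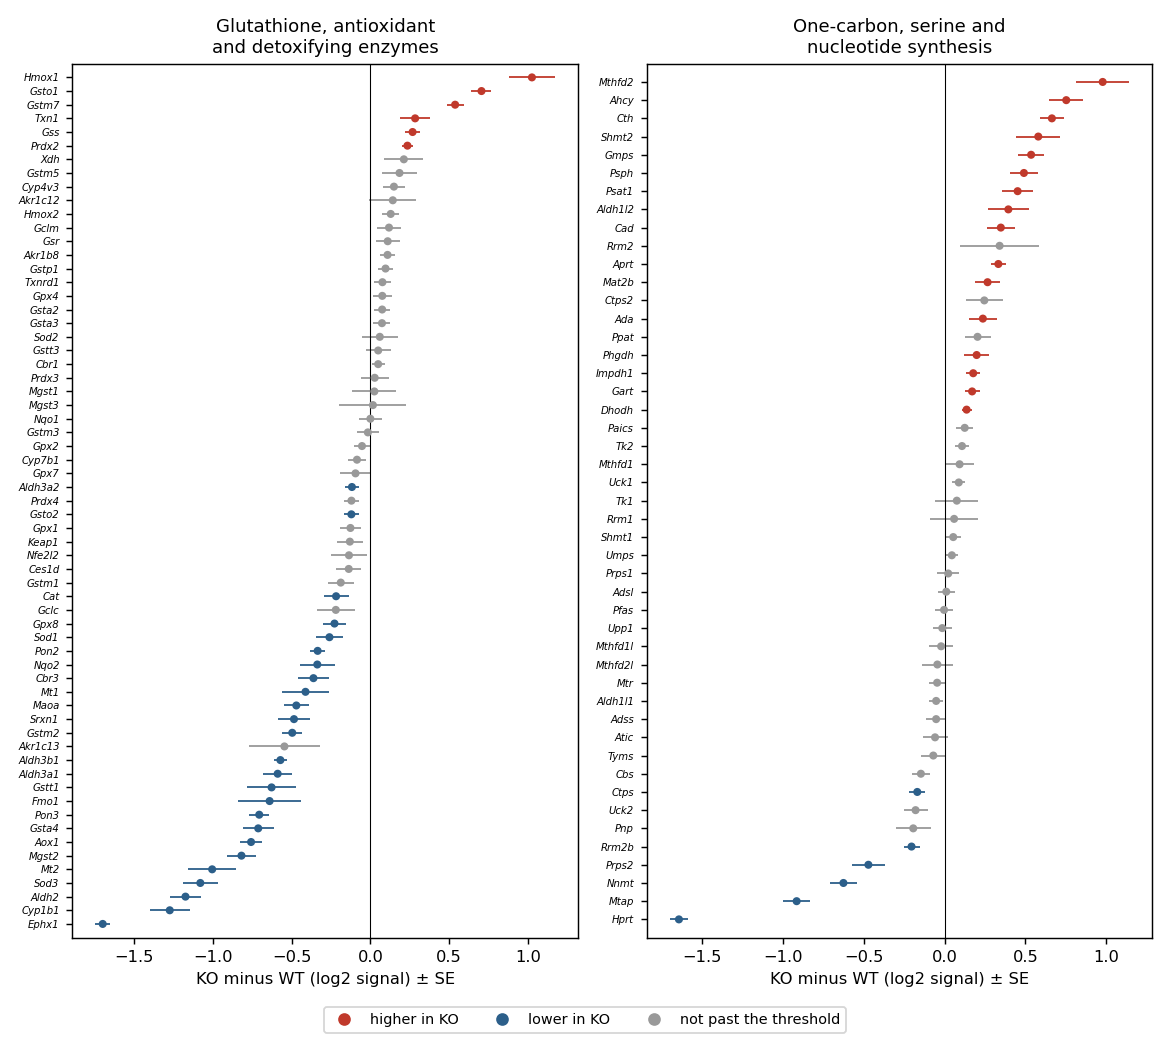
Difference in log2 signal, KO minus WT, ± SE for every tested gene of the glutathione, antioxidant and detoxifying list (left, 63 genes) and of the one-carbon, serine and nucleotide list (right, 47 genes); red points are called higher in KO, blue points lower and grey points are not past the threshold. On the left 25 genes are lower and 6 higher, with Ephx1 lowest, and on the right 16 are higher and 6 lower, with Hprt lowest.

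Enzymes of the tricarboxylic acid cycle, pyruvate and the pentose phosphate pathway had 6 of 47 tested higher in KO (12.8%) and 14 lower (29.8%), beside 16% and 13% over all genes, with a median of -0.035. The differences were small, and in experiments 4 and 5 alone 9 were lower in place of 14. Of the subunits of succinate dehydrogenase, Sdha, Sdhc and Sdhd were lower with differences of -0.19 ± 0.044, -0.19 ± 0.047 and -0.22 ± 0.054, while Sdhb was higher (0.24 ± 0.051). Idh3a and Idh3b, of the NAD-dependent isocitrate dehydrogenase, were lower (-0.44 ± 0.074 and -0.23 ± 0.054), and the NADP-dependent mitochondrial Idh2 was higher (0.29 ± 0.042). The regulators of pyruvate dehydrogenase Pdk4 and Pdp1, a kinase and a phosphatase, were 8.44 ± 0.052 in KO and 9.06 ± 0.17 in WT (difference -0.62 ± 0.055) and 9.12 ± 0.064 in KO and 9.80 ± 0.14 in WT (difference -0.68 ± 0.078). Gpt2 and Got2, mitochondrial transaminases, were higher (0.34 ± 0.061 and 0.28 ± 0.058). In experiments 4 and 5 alone, Idh3a (adjusted p = 0.195) and Got2 (0.171) were not called.

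Genes of fatty acid handling were called about evenly, 11 of 65 higher in KO (16.9%) and 12 lower (18.5%). Over all genes the shares were 16% and 13%. Acot1, a cytosolic acyl-CoA thioesterase, had 10.12, 9.88, 10.25 and 10.10 in KO, against 8.60, 8.55, 8.57, 8.57 and 8.57 in WT, and all KO arrays lay above WT (difference 1.52 ± 0.097, adjusted p = 4.27e-17). The carnitine palmitoyltransferases Cpt1a and Cpt2, which bring fatty acids into mitochondria, were higher by less (0.31 ± 0.077 and 0.26 ± 0.078). Genes of synthesis and storage went both ways. Agpat2 and Agpat5, which add the second acyl chain on the way to triglyceride, were 8.44 ± 0.11 in KO and 9.17 ± 0.046 in WT (difference -0.73 ± 0.041) and 9.18 ± 0.088 in KO and 9.81 ± 0.13 in WT (difference -0.63 ± 0.060), Plin4 of lipid droplets was 8.37 ± 0.12 in KO and 9.10 ± 0.20 in WT (difference -0.73 ± 0.091), and the desaturases Scd1 and Fads1 were lower (-0.36 ± 0.12 and -0.36 ± 0.084), though that of Scd1 was 0.04 in experiments 4 and 5 alone (adjusted p = 0.924). Pparg, the fat cell regulator, was 8.47 ± 0.11 in KO and 9.04 ± 0.16 in WT (difference -0.57 ± 0.073). Fabp5, a fatty acid binding protein, was 11.75 ± 0.074 in KO and 11.33 ± 0.056 in WT (difference 0.42 ± 0.058), and Elovl4, an elongase of very long chains, was 9.15 ± 0.038 in KO and 8.60 ± 0.030 in WT (difference 0.55 ± 0.043). With the replicate number as a block, 17 genes of the list were higher in place of 11.

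Enzymes of sphingolipids and phospholipids had 12 of 46 higher in KO (26.1%) and 10 lower (21.7%), beside 16% and 13% over all genes. Sphk1, which makes sphingosine 1-phosphate, was 9.72 ± 0.15 in KO and 8.74 ± 0.15 in WT (difference 0.98 ± 0.088), and Sgpl1, which breaks it down, was lower (-0.18 ± 0.046). The 2 sphingomyelin synthases differed in sign, Sgms1 at 9.65 ± 0.17 in KO and 10.27 ± 0.063 in WT (difference -0.62 ± 0.073) and Sgms2 at 9.94 ± 0.094 in KO and 9.52 ± 0.15 in WT (difference 0.43 ± 0.091). So did the lipid phosphate phosphatases, Plpp1 at 10.52 ± 0.14 in KO and 11.50 ± 0.041 in WT (difference -0.98 ± 0.072) and Plpp3 at 10.92 ± 0.24 in KO and 10.35 ± 0.16 in WT (difference 0.57 ± 0.12). Pla2g7, which hydrolyses platelet-activating factor, was 9.35 ± 0.065 in KO and 8.34 ± 0.065 in WT (difference 1.01 ± 0.071). Plcb1 was 9.17 ± 0.092 in KO and 9.48 ± 0.20 in WT (difference -0.31 ± 0.11) with overlapping arrays, and its call ended without replicate 1 (adjusted p = 0.0987), 2 (0.109), 4 (0.0535) or 5 (0.0644).

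Of 39 genes tested for lysosomal enzymes and related proteins, 12 were lower in KO (30.8%) and 6 higher (15.4%). Over all genes 13% were lower and 16% higher. In experiments 1 to 3 alone 15 of the list were lower, and in experiments 4 and 5 alone fewer were. The counts include Lamp1, a membrane protein (higher), and Npc2, a cholesterol-binding protein (lower). Ctsz, the carboxypeptidase cathepsin Z, had 9.88, 9.94, 9.87 and 10.10 in KO, against 11.35, 11.34, 11.30, 11.32 and 11 in WT. All 3 of its probe sets were lower, with a difference of -1.32 ± 0.074, adjusted p = 4.97e-19 in the one used. Ctsh and Ctso, other cathepsins, were lower (-0.64 ± 0.11 and -0.46 ± 0.092). Ctsc was higher (0.16 ± 0.027), and Ctsb, Ctsl, Ctsd, Ctsa and Ctss were not called (-0.0 ± 0.055, 0.02 ± 0.046, 0.24 ± 0.097, 0.21 ± 0.13 and -0.02 ± 0.040). With the replicate number as a block, Ctsd and Ctsa were called higher (adjusted p = 0.0151 and 0.0174). Also lower were Lipa, the acid lipase, at 9.95 ± 0.13 in KO and 10.62 ± 0.047 in WT (difference -0.67 ± 0.076), and Fuca1, the fucosidase, at 9.68 ± 0.12 in KO and 10.32 ± 0.11 in WT (difference -0.64 ± 0.063). Hexa, Glb1 and Arsa, which degrade gangliosides and sulphatides, were lower by less (-0.42 ± 0.083, -0.34 ± 0.047 and -0.26 ± 0.062). Gla, the galactosidase, was 9.30 ± 0.30 in KO and 8.85 ± 0.095 in WT (difference 0.46 ± 0.15), Ids, the iduronate sulphatase, 10.40 ± 0.11 in KO and 10.13 ± 0.055 in WT (difference 0.27 ± 0.042) and Gusb, the glucuronidase, 9.66 ± 0.10 in KO and 9.39 ± 0.076 in WT (difference 0.27 ± 0.063). The call for Gla ended without replicate 1 (adjusted p = 0.0545), 3 (0.0828) or 4 (0.156), and that for Gusb in experiments 1 to 3 alone (0.0647). Of the probe sets tested, 1 of 3 for Gla and 2 of 4 for Ids were called higher.

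Of 36 imprinted genes tested, 5 were higher in KO (13.9%) and 3 lower (8.33%), below the shares over all genes. In experiments 1 to 3 alone 6 were lower, and in experiments 4 and 5 alone 8 were higher. Apart from Plagl1, Slc38a4, an amino acid transporter, had 8.73, 8.84, 8.84 and 8.76 in KO, against 9.80, 9.86, 9.53, 10.00 and 9.82 in WT. All KO arrays were lower (difference -1.01 ± 0.091, adjusted p = 2.92e-12). Igf2r, which clears IGF2 and carries lysosomal enzymes, was 8.94 ± 0.19 in KO and 9.51 ± 0.14 in WT (difference -0.57 ± 0.097). H13, a signal peptide peptidase, was 11.02 ± 0.068 in KO and 10.64 ± 0.12 in WT (difference 0.38 ± 0.075), but did not pass in experiments 4 and 5 (adjusted p = 0.0683). Ube3a, an E3 ubiquitin ligase, was 10.88 ± 0.15 in KO and 10.46 ± 0.15 in WT (difference 0.42 ± 0.12). Its call ended without replicate 2 (adjusted p = 0.0658), and in experiments 4 and 5 alone its difference was 0.17. Of the probe sets tested, 2 of 6 for Ube3a and 2 of 4 for H13 were called higher. Sgce, a sarcoglycan, was 9.04 ± 0.45 in KO and 9.69 ± 0.20 in WT (difference -0.66 ± 0.22). Its call ended without replicate 1 (0.0592), 2 (0.0597), 3 (0.0578) or 4 (0.129) and after background subtraction (0.0739).

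Zfp36 lies on mouse chromosome 7 (chr7:28376784-28379228 in GRCm38.p6), and 138 genes within 5 Mb of it were tested. Of these, 27 were higher in KO (19.6%) and 9 lower (6.52%), beside 16% higher and 13% lower over all genes, with a median of 0.039 beside 0.01 over all genes. Clip3, Ltbp4 and Hspb6 were the furthest above (0.78 ± 0.084, 0.71 ± 0.088 and 0.68 ± 0.12, named after their values were seen), and Tgfb1, the cytokine, was lower (-0.39 ± 0.089). Without replicate 2, 17 genes of this region were higher in place of 27, and in experiments 1 to 3 alone 16 were lower in place of 9.

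Of the 6964 probe sets called at 0 min, 5178 were called in the same direction at 120 min of actinomycin D and 10 in the opposite direction. They made up 74.4% of the calls at 0 min and 58.5% of the 8847 calls at 120 min. By gene, 4753 of 13018 were called at 120 min (36.5%). Of the 140 genes named by rule, 128 were called in the same direction at 120 min. The difference in Foxd1 was -1.52 at 0 min and -0.92 at 120 min, and that in Hprt was -1.65 at 0 min and -2.0 at 120 min, and whether a difference changed between the times was not tested.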

How the data were processed

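The deposited values are 1 log2 signal per probe set and array. Per the labels, RNA was put on Affymetrix mouse arrays and read with GeneChip Operating Software; how the authors summarised, corrected and scaled the log2 values they deposited was not stated in these sources, and base 2 was inferred because no value exceeds 14. Of 45101 probe sets, 64 controls were left out, and 27500 with a value above their array's median in at least 4 of 48 arrays were tested. Gene symbols came from the platform annotation: 23140 tested probe sets had 1 symbol, 681 several and 3679 none, and only those with 1 were named.

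Limma 3.58.1 (R 4.3.3) was fitted to all 48 arrays with 1 mean per line and time, an intensity trend and robust variances, and the two-sided contrast of KO minus WT at 0 min was adjusted by Benjamini-Hochberg over all tested probe sets. The fit was tested on simulated data. The named genes are Zfp36, the 10 highest and 10 lowest called genes whose arrays do not overlap, and up to 3 genes higher and 3 lower in each list; other called or uncalled list members are given where they complete a pathway, after their values were seen. Members and lists were chosen with earlier results of these data known. Lists are described by counts beside those over all genes, with no test of the list. The number of arrays limits the precision.

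Per the series text, both lines were handled side by side in each of the 5 experiments; that the replicate number is the number of the experiment was inferred. Same-numbered samples' deviations from the group means, averaged over times, correlated at 0.12 to 0.604 (at 0 min alone, -0.095 to 0.283). Some differently numbered samples correlated more: KO 2 had 0.451 with WT 3 and 0.338 with WT 2. At 0 min alone, KO 3 had 0.204 with WT 1 and 0.062 with WT 3. These values therefore cannot decide whether the numbers pair the samples, and the pairing remains an inference. The fit without a block is reported, and the block is given beside results it changes. Promoter sequences are from RefSeq (GRCm38.p6). Alternatives were other filters, scalings, background subtraction, the variance model, the 9 arrays alone, sets of experiments and leaving out each replicate.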

Additional observations from a re-analysis of the deposited data

Results flagged for a closer look

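In 19 of the 280 groups of arrays looked at (140 named genes in 2 lines), 1 array stood far from the others of its line by Dixon's criterion, which chance meets in about 1 of 20 groups. In the KO line the array stood low for 6 genes. Tgfbi was at 8.399 in replicate 4, against 9.688 to 9.827 in the other KO arrays, Sgce at 8.363 in replicate 4, against 9.185 to 9.303, and Wnt5a at 9.093 in replicate 3, against 9.747 to 9.811. Zfp36 was at 9.278 in replicate 3, Robo1 at 9.176 in replicate 4 and Fabp5 at 11.641 in replicate 2.

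In the KO line the array stood high for Itgbl1 (8.558, replicate 2), Jup (9.071, replicate 1), Nectin2 (9.879, replicate 4), Hprt (8.711, replicate 2) and Nnmt (8.722, replicate 4). In the WT line replicate 3 stood high for Cyba (8.418) and Jup (8.462) and low for Foxf1 (8.309), Pde7a (9.147) and Rdh10 (8.6). The other WT values were Hivep3 at 10.677 in replicate 4, Prkg1 at 8.402 in replicate 1 and Ctsz at 10.997 in replicate 5. Replicate 4 held 5 of the 11 KO values and replicate 3 held 5 of the 8 WT values. For every one of these genes the arrays of the 2 lines did not overlap.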

How the results depend on the processing

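The numbers of probe sets called stayed within 1.5 times of 3690 higher and 3274 lower in KO under every alternative run, except that the 9 arrays at 0 min alone with a replicate block gave 2366 higher (2212 lower), a fit added after seeing the data. The replicate block over all arrays gave 4935 higher and 4001 lower, and 6950 of the 6964 calls were among them in the same direction. It changed no call of the 140 named genes. In the lists it also moved counts not given above, such as from 14 to 17 higher for the Wnt list. For the detoxifying list it moved the lower count from 25 to 29. Leaving out each replicate gave 2898 to 3568 higher and 2351 to 3192 lower. Scaling alternatives gave 3180 higher and 3313 lower (median centring) and 3827 and 3507 (quantile normalisation). Of 2238 repeats of the 140 named genes' results, 2186 kept direction and call, 51 lost the call and 1 turned: Sulf2, at -0.0085 in experiments 4 and 5 alone (adjusted p = 0.99); the cause was not tested. Timp1 and Scd1, list members named above outside the 140, also turned there. Losses fell on 24 genes, and 16 of the 51 came in experiments 4 and 5 alone, which hold 1 KO and 2 WT arrays at 0 min. Counting every tested probe set of a gene in place of 1 raised list counts, since more probe sets were counted. Calls in both sets of experiments had the same direction for 3126 probe sets and opposite directions for 34. Of probe sets called at 0 min, 5178 had the same call at 120 min, and 6657 with the block. If the deposited signals keep their background, which was not stated, differences of genes near an array's median of about 8.5 are understated.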
